A study of Macaca mulatta with 2 samples.

Results

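The interferon response genes described here are a list of 39 genes, taken by symbol from both matrices: the ligand IFNG, transcription factors that carry the interferon signal, and genes that interferon is known to induce. A named feature was found for 38 of the 39 among the 24037 features that both matrices hold, 37 by the symbol in the files and USP18 by its symbol in the reference table of gene names. DTX3L was not analysed here. The rule takes the members by their names and uses no measured value, but the list was chosen with earlier results of these data known.

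Single-cell RNA was measured in trabecular meshwork, the porous tissue through which aqueous humour leaves the eye, of rhesus macaques (Macaca mulatta). There was 1 library labelled glaucoma, from monkeys with spontaneous primary open-angle glaucoma according to the series' design text, and 1 labelled normal, from healthy controls. Both were dissociated with collagenase by 1 protocol, and the labels give no treatment, age, or number of animals or eyes. The comparison asks which genes differ between the glaucomatous and the healthy tissue, but with 1 library per group no p-value is given: animal, dissection day and diagnosis cannot be told apart.

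Interferons are secreted proteins that warn cells of viral infection. Type I interferons act through the IFNAR receptor and JAK kinases to activate a complex that holds STAT2 and IRF9, which switches on antiviral genes such as the IFIT, OAS and MX families. Interferon-gamma, made mainly by T and NK cells, acts through a receptor of its own and induces IRF1 and the immunoproteasome subunits PSMB8 and PSMB9, which cut proteins into peptides for display to T cells.

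After filtering, 8337 glaucoma cells with 30011671 UMIs (unique molecular identifiers, each a counted RNA molecule) and 5385 normal cells with 21696437 UMIs remained, with a median of 2751 and 2702 UMIs per cell. The libraries had 11 kept barcodes in common. The cells formed 26 clusters and 13 classes, each called "like" its type because it was named from markers. The 4 meshwork-like clusters carried between 8 and 12 of the meshwork markers, MYOC, CHI3L1 and ANGPTL7 among them in each. At least 50 cells in each library were required to compare a class, which left 9 classes. From the glaucoma and the normal library these held 2366 and 866 meshwork-like cells, 1240 and 1596 stromal fibroblast-like, 700 and 1054 muscle-like, 523 and 331 pericyte-like, 640 and 307 vascular endothelium-like, 633 and 153 macrophage-like, 321 and 113 T or NK cell-like, 876 and 575 non-myelinating Schwann cell-like, and 203 and 241 myelinating Schwann cell-like cells. Levels are counts per 1e+06 UMIs of the class (CPM). The 3-prime kit counts each transcript once whatever its length. How completely the reads of each gene were assigned was not checked, so levels of different genes can be set side by side only roughly. Differences are log2 ratios of the glaucoma over the normal level. Brackets hold exact 95% intervals, which reflect counting error alone and say nothing of how animals vary. A gene was called higher or lower in the glaucoma library by a rule of size: a change of 2-fold or more, an interval that excludes 1, and 100 or more UMIs of that gene in the class (both libraries added).

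Summed over the list, interferon response genes were highest in the vascular endothelium-like cells and lowest in the muscle-like cells, and their sum differed by less than 2-fold between the libraries in each compared class. Single genes did, in both directions. IFI27, OAS1, IFI6, PSMB8 and PSMB9 were called higher in the glaucoma library in at least 1 class, and IFNG, IRF1, TRIM22, MX1, OAS3, EIF2AK2, SAMD9L and PARP14 were called lower. No member was called higher in 1 class and lower in another, but only IFI27, OAS1, IRF1 and TRIM22 were called in more than 1 class. By the interval alone, in classes with at least 20 UMIs, MX1 was above 1 in 1 class and below in 3. SAMD9L was above in 1 and below in 5. MX2 was above in 2 and below in 2, IFIT3 in 3 and 1, IFI44 in 2 and 1, UBE2L6 in 1 and 1, and TRIM22 in 1 and 8.

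Summed over the 38 members, the level over all kept cells was 1514 CPM (glaucoma) and 1299.6 CPM (normal) (log2 0.22 [0.20, 0.24]). With the 9 classes at equal weight it was 1798 and 1963 CPM, and the sign turned (log2 -0.13). The libraries differ in class make-up, so the values by class are given from here on. Within classes the sum was 4431 and 4409.6 CPM in the vascular endothelium-like cells, 3499 and 3677 in the T or NK cell-like cells, 1619 and 1787 in the pericyte-like, 1546 and 1844 in the non-myelinating Schwann cell-like, 1519 and 1537 in the stromal fibroblast-like, 1465 and 2049 in the macrophage-like, 1230 and 1381 in the meshwork-like, 503 and 703 in the myelinating Schwann cell-like and 373 and 275 in the muscle-like cells. The lymphatic-type endothelium-like cells, with 33 cells in the normal library and not compared, stood at 2425 and 2507 CPM. Between the libraries the sum differed most in the macrophage-like (log2 -0.48 [-0.57, -0.40]), myelinating Schwann cell-like (-0.48) and muscle-like cells (0.44 [0.33, 0.55]). In bulk sums over a class, fewer cells that express a gene and less RNA per cell cannot be told apart.

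**Figure D1:**
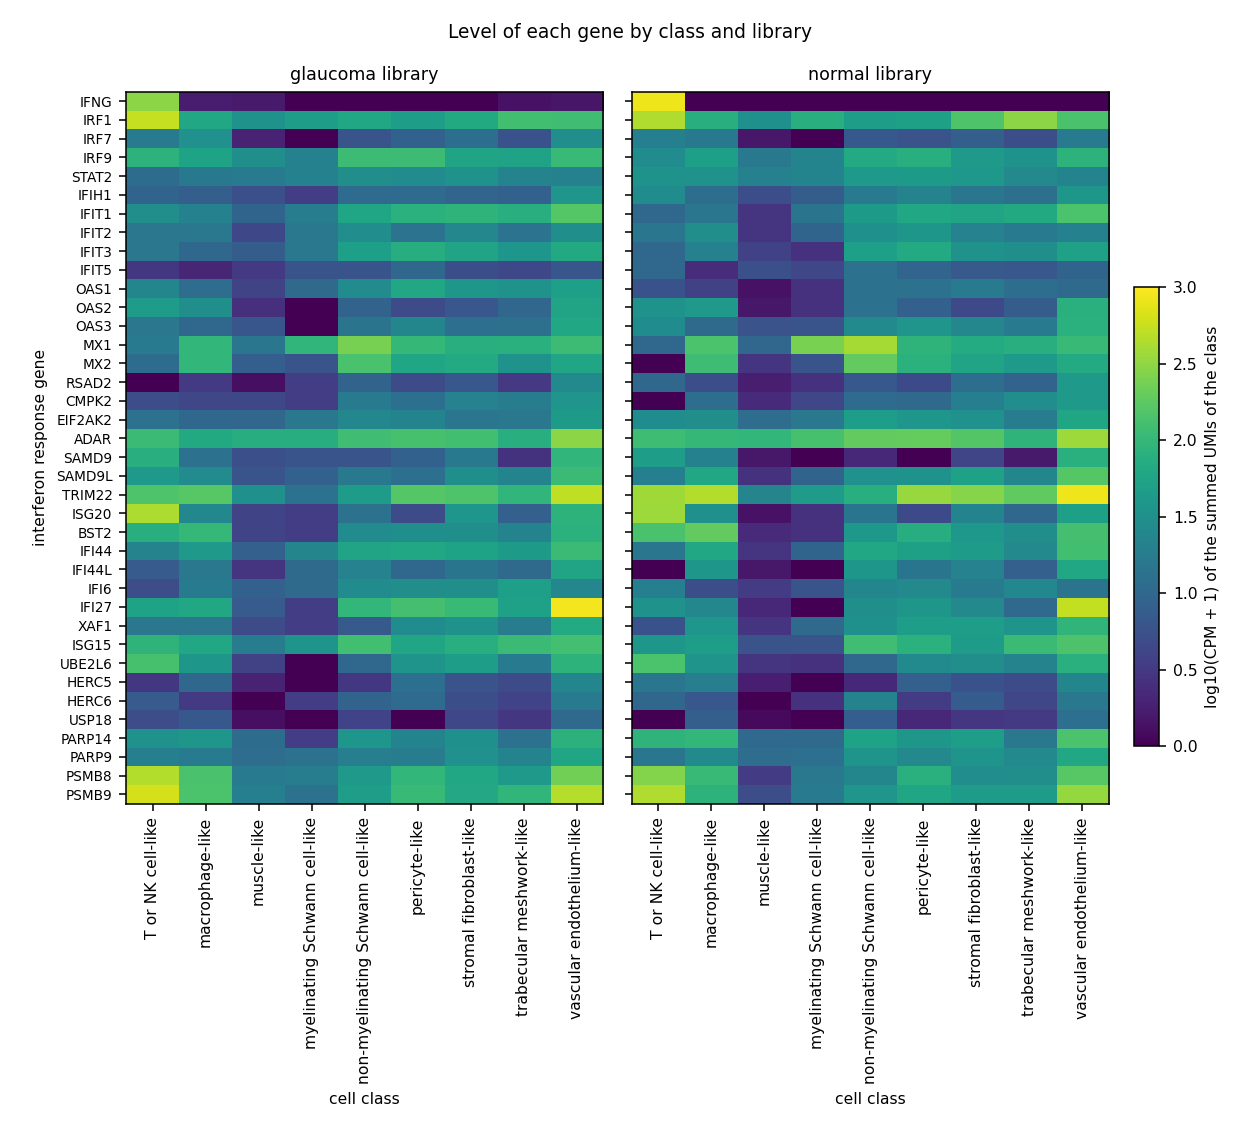
Level of each of the 38 interferon response genes (one line each, ordered by role) in the 9 compared classes (columns) of each library, coloured by log10(CPM + 1). The vascular endothelium-like column is the brightest for most genes in both libraries, and IFNG is bright in the T or NK cell-like column and at most 0.752 CPM elsewhere.

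The class of the highest level was the same in both libraries for 30 of the 38 members. It was the vascular endothelium-like class for 22 members (glaucoma) and 21 members (normal), 20 of them in both. The T or NK cell-like class led in both libraries for IFNG, IRF1, ISG20, UBE2L6, PSMB8 and PSMB9. The non-myelinating Schwann cell-like class led for MX1 and MX2, the macrophage-like class for BST2 and the pericyte-like class for IFIT3. The leading class had an interval clear of the next class for 23 members (glaucoma) and 16 members (normal). The level was lowest in the muscle-like class for 14 and 25 members. Leading and lowest classes were not counted over all features, so whether this order is particular to the list cannot be said.

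IFNG, the ligand, was found almost entirely in the T or NK cell-like class, the cells known to make it. It stood at 298 CPM there (143 UMIs) in the glaucoma library, against 829 CPM (177 UMIs) in the normal one, which is lower in glaucoma by the rule (log2 -1.48 [-1.81, -1.15]). With every cell thinned to 1000 UMIs, which left 302 and 109 cells, 49 cells (16.2% [12.3, 20.9]) and 29 cells (26.6% [18.6, 35.9]) held an IFNG UMI. Unthinned, the shares were 19.6% and 34.5%. Of the meshwork-like cells, which are not known to make it, 2 of 2366 held an IFNG UMI (0.0845%) and 0 of 866, which allows a share of up to 0.346% (3 counts of the total). Their median depth was 4979 and 6804.5 UMIs, against 1350 and 1744 in the T or NK cell-like class. Thinned T or NK cell-like cells with IFNG carried 1.80 and 3.38 UMIs each. Both the share of IFNG-positive cells and the UMIs in each were thus lower in the glaucoma library, although the intervals of the shares overlap. Outside this class IFNG reached at most 0.752 CPM in any compared class. Markers of T cells and of NK cells were not lower: CD3D, CD3E and CD3G together stood at 2076 and 1794 CPM (log2 0.21), and NKG7, KLRB1 and KLRD1 at 833 and 440 CPM (log2 0.92 [0.59, 1.26]). Their part in the IFNG difference was not tested.

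In this class 6 of 38 members had enough UMIs. None was called higher (4.83% of all measured genes of the class were) and 2, IFNG and TRIM22, were called lower (2.41% of all). The others were IRF1 at 547 and 440 CPM (log2 0.31), ISG20, an RNA-degrading exonuclease, at 431 and 365 CPM, PSMB8 at 450 and 276 CPM (log2 0.70) and PSMB9 at 633 and 436 CPM (log2 0.54). None of these 4 was past the rule, and the intervals of IRF1 and ISG20 included 1. All measured genes of the class had a median log2 ratio of 0.15, with 63.8% above 0. UBE2L6, the enzyme that passes ISG15 to its targets, had its highest level here, at 133 and 141 CPM.

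IRF1, a transcription factor induced by interferon-gamma and by other inflammatory signals, was lower in 2 classes. Among meshwork-like cells it stood at 121 CPM (glaucoma, 1579 UMIs) and 300.3 CPM (normal, 1862 UMIs), lower by log2 -1.31 [-1.40, -1.21]. In the stromal fibroblast-like cells it stood at 65.0 and 147 CPM (log2 -1.17 [-1.40, -0.95]). In the other classes the 2 libraries were closer, with 118 and 136 CPM in the vascular endothelium-like cells, 62.4 and 75.6 in the macrophage-like and 61.8 and 47.1 in the non-myelinating Schwann cell-like cells. The last class joins 2 clusters that differ, at log2 -0.16 and 1.99, the latter with an interval above 1. Of 9 classes, 3 had a ratio above 1.

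Both IRF1 differences were uneven over the clusters that make up the classes. In the glaucoma library 63.2% of meshwork-like cells were in cluster 1 and 7.44% in cluster 10, against 19.9% and 61.2% in the normal library. The leading genes of cluster 1 include CYTL1, CCK and MGARP, and those of cluster 10 PLA2G2A, CYTL1 and CHAD. IRF1 stood at 115 and 255 CPM in cluster 1 (log2 -1.15), at 241 and 335 CPM in cluster 10 (log2 -0.48 [-0.65, -0.31]) and at 77.4 and 53.0 CPM in cluster 9 (log2 0.55 [-0.30, 1.53]). With clusters weighted alike in each library the meshwork-like difference was log2 -0.68, under the 2-fold rule, and with cells thinned to 1000 UMIs it was -0.81. In the stromal fibroblast-like cells the difference was found in cluster 4, led by GPHA2 (92.5 and 273 CPM, log2 -1.56), and not in cluster 0, led by PI16 (50.5 and 38.7 CPM, log2 0.38 [-0.05, 0.82]). For IRF1 the stromal value turned sign with doublets kept (log2 0.27) and under a stricter cell filter (0.20), where the clusters that formed the class changed, and it was -0.24 with thinned cells.

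Immediate early genes, which cells switch on within minutes of a stimulus or of tissue dissociation, were also lower in these 2 classes. For the meshwork-like cells the median of this list was log2 -1.46, with 9 of 15 measured genes lower and 1 higher, and in the stromal fibroblast-like cells it was -1.27, with 8 of 15 lower and 1 higher. Of all measured genes 5.55% and 4.73% were lower in these classes, and 6.05% and 1.85% higher. In the other 7 classes, where IRF1 was not called lower, the medians were also below 0. They went from -0.94 with 3 of 9 measured genes lower (myelinating Schwann cell-like) to -0.10 (macrophage-like). In the non-myelinating Schwann cell-like cells the median was -0.55, where the IRF1 ratio was log2 0.39 (-0.16 and 1.99 in the 2 clusters of the class). The part of this list in the IRF1 difference was not tested.

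The other transcription factors were called in no class. IRF9, the DNA-binding part of the type I complex, stood at 53.1 and 33.7 CPM in the meshwork-like cells (log2 0.66), at 112 and 66.6 CPM in the non-myelinating Schwann cell-like cells (0.74), at 112 and 76.2 CPM in the pericyte-like cells and at 108 and 86.9 CPM in the vascular endothelium-like cells. Its ratio was above 1 in 8 of 9 classes. The IRF9 difference reached log2 1.60 [0.36, 3.13] in the T or NK cell-like cells (85.4 and 28.1 CPM), which rests on 41 and 6 UMIs and is under the UMI minimum. STAT2, its partner, stood at 21.1 and 24.7 CPM in the meshwork-like cells and 33.0 and 38.8 CPM in the stromal fibroblast-like cells, with a ratio below 1 in all 8 classes with at least 20 UMIs. IRF7, the factor that amplifies type I interferon production, had under 100 UMIs in every class. Its highest level in the glaucoma library was 32.3 CPM in the macrophage-like cells, against 15.4 CPM there in the normal library (log2 1.07). In the same cells STAT2 stood at 15.4 and 33.6 CPM (log2 -1.12), also under 100 UMIs.

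IFI27, a mitochondrial protein strongly induced by type I interferon, was the member with the most calls. In each of 5 classes it was higher in the glaucoma library. Meshwork-like cells held IFI27 at 51.4 CPM (669 UMIs) against 9.51 CPM (59 UMIs), log2 2.43 [2.05, 2.84]. In the stromal fibroblast-like cells IFI27 stood at 107 against 24.6 CPM, log2 2.11 [1.82, 2.41]. It was also higher in the pericyte-like (129 against 38.1 CPM, log2 1.75), non-myelinating Schwann cell-like (95.3 against 29.9, 1.67) and macrophage-like cells (62.4 against 23.8, 1.39 [0.67, 2.20]). Its level was far higher in the vascular endothelium-like cells, at 875 and 526 CPM, where the difference of log2 0.73 stayed under the rule. The vascular endothelium-like class thus led in both libraries, with less distance to the other classes in the glaucoma library. For IFI27 all 8 classes with at least 20 UMIs had a ratio above 1.

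IFI27 is abundant in endothelium, so its UMIs in other classes were set against those of endothelial markers. The whole list of 13, all with a UMI there, stood at 256 CPM (glaucoma) and 249.6 CPM (normal) in the meshwork-like cells (log2 0.04). At the ratio of IFI27 to these markers in the vascular endothelium-like cells, they would bring 44.4% of the IFI27 UMIs of the glaucoma meshwork-like cells and 158% of those of the normal ones, that is, more than were counted. The result depends on the markers taken. PECAM1, VWF and CDH5, 3 of the 13, stood at 12.1 and 26.6 CPM in the meshwork-like cells. Per UMI of these 3 there were 4.26 IFI27 UMIs in the glaucoma meshwork-like cells and 0.331 in the vascular endothelium-like cells. At the endothelial ratio these 3 would bring 7.78% of its UMIs in the glaucoma meshwork-like cells and 50.5% in the normal ones. In the macrophage-like cells these shares were 41.5% and 53.2% (27.8% and 34.0% with all 13). The part of endothelial RNA in the IFI27 difference was not tested further. Red blood cell genes, another sign of RNA from other cells, summed to 681 and 211 CPM in the meshwork-like and 422 and 365 CPM in the stromal fibroblast-like cells. They summed to 2058 and 339 CPM in the non-myelinating Schwann cell-like, 615 and 252 in the macrophage-like and 556 and 332 in the pericyte-like cells. The myelinating Schwann cell-like cells went the other way, at 446 and 3133 CPM. The part of this RNA was not tested. In the muscle-like cells, at the other end, IFI27 was at 6.32 and 1.16 CPM.

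The share of cells with a UMI differed in the same direction as the level. With cells thinned to 1000 UMIs, 3.59% of 2314 glaucoma and 1.31% of 837 normal meshwork-like cells held an IFI27 UMI, and 50.6% of 595 and 36.1% of 227 vascular endothelium-like cells. Unthinned, the meshwork-like shares were 13.0% and 4.62%. In muscle-like cells, where IFI27 was low and the median depth was 3602.5 and 3891 UMIs, the thinned shares were 5 of 683 (0.732%) and 0 of 1013, which allows up to 0.296%. Within the meshwork-like clusters IFI27 stood at 46.9 and 9.61 CPM in cluster 1, 23.8 and 6.04 in cluster 10 and 87.6 and 57.4 in cluster 9 (log2 0.61 [-0.20, 1.54]). With the same weight for each cluster the meshwork-like IFI27 difference was log2 1.29, and with thinned cells 1.82, both still above the 2-fold rule.

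**Figure D2:**
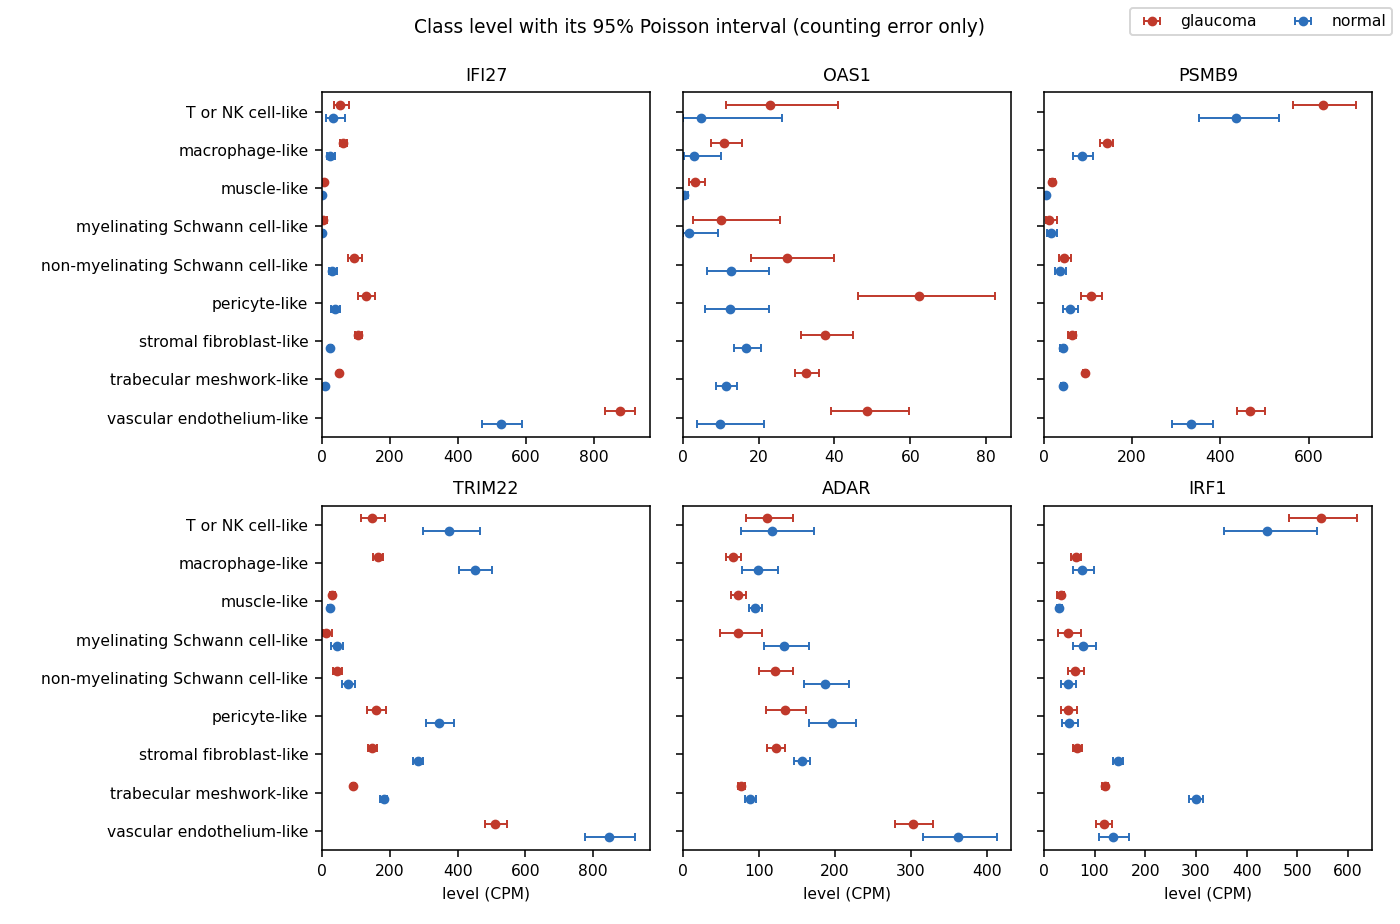
Level of IFI27, OAS1, PSMB9, TRIM22, ADAR and IRF1 in CPM (horizontal axis, linear) by class, with 1 point per library and bars for exact 95% Poisson intervals (counting error only). IFI27 and OAS1 lie higher in the glaucoma library in each class, and TRIM22 lies lower in all but the muscle-like class.

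OAS1, an enzyme that senses double-stranded RNA and activates RNase L, was higher in the meshwork-like cells (32.6 against 11.3 CPM, log2 1.53 [1.16, 1.92]) and in the stromal fibroblast-like cells (37.6 against 16.7 CPM, log2 1.17 [0.77, 1.57]). In classes with too few UMIs for the rule OAS1 still stood at 62.4 against 12.3 CPM (pericyte-like) and 48.6 against 9.84 CPM (vascular endothelium-like). All 6 classes with at least 20 OAS1 UMIs had a ratio above 1, and 5 of the 6 intervals excluded 1. With the same weight for each cluster the OAS1 meshwork-like value fell under 2-fold (log2 0.92), and the stromal value did so under the stricter filter (0.81) and with libraries clustered separately (0.93). In each of meshwork-like clusters 1, 9 and 10 OAS1 was nearer 2-fold, at log2 1.04, 1.05 and 0.83.

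OAS1 was the only one of the 3 OAS genes called higher. OAS3, its neighbour in the reference gene order, was lower in the stromal fibroblast-like cells (11.6 against 23.7 CPM, log2 -1.03 [-1.59, -0.50]), a call that is lost when ratios are centred on the median of all genes (-0.91) or the libraries clustered separately (-0.90). OAS3 in the meshwork-like cells stood at 11.9 and 16.8 CPM. OAS2 was highest in the vascular endothelium-like cells at 56.0 and 78.7 CPM, stood at 8.84 and 6.61 CPM in the meshwork-like cells (log2 0.42), and was called in no class. The OAS, IFIT and MX genes are families of like sequence, and how reads that match more than 1 of them were counted is not given in the sources used here.

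IFI6, a small protein of the same family as IFI27, was higher in the meshwork-like cells, at 48.7 against 24.2 CPM (log2 1.01 [0.75, 1.27]). This call sits at the edge of the rule, and for IFI6 the value was 0.83 with doublets kept and 0.82 under the stricter filter. In the stromal fibroblast-like cells, just outside the rule, IFI6 stood at 30.5 and 15.6 CPM (log2 0.97). All 7 classes with at least 20 IFI6 UMIs had a ratio above 1. IFI44, of uncertain function, was highest in the vascular endothelium-like cells at 110 and 121 CPM and stood at 42.4 and 25 CPM in the meshwork-like cells (log2 0.76). In the 2 non-myelinating Schwann cell-like clusters the IFI44 ratio was log2 -0.18 and 1.35. Its neighbour IFI44L reached 56.0 and 60.7 CPM in the vascular endothelium-like cells.

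Among the IFIT genes, whose proteins bind foreign RNA, none was called in any class. IFIT1 was highest in the vascular endothelium-like cells, at 159 and 141 CPM, and stood at 77.0 and 64.8 CPM in the meshwork-like cells. Its ratio was above 1 in all 7 classes with at least 20 UMIs, but never past the rule. IFIT3 led in the pericyte-like cells with 72.6 and 67.6 CPM. The 2 non-myelinating Schwann cell-like clusters differed, with log2 -0.25 and 2.49 for IFIT1, -0.59 and 1.84 for IFIT2 and -0.57 and 1.49 for IFIT3. The higher value of each had an interval above 1. IFIT2 reached 30.4 CPM (vascular endothelium-like) and 38.1 CPM (pericyte-like), and IFIT5 8.91 and 12.6 CPM, in different classes of the 2 libraries.

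MX1, a GTPase that blocks viral replication, had its highest level in the non-myelinating Schwann cell-like cells, at 241 CPM (glaucoma) and 393 CPM (normal) (log2 -0.70). In the glaucoma library 91.8% of these cells were in cluster 2 and 8.22% in cluster 14, against 37.0% and 63.0% in the normal library, and MX1 went both ways within them. It stood at 202 and 374 CPM in cluster 2 (log2 -0.89 [-1.21, -0.56]) and at 668 and 407 CPM in cluster 14 (log2 0.71 [0.26, 1.15]). MX2, the related gene beside it, was also highest in this class, at 137 and 191 CPM. In the myelinating Schwann cell-like cells MX1 was lower in the glaucoma library by the rule, at 94.6 against 245 CPM (log2 -1.38 [-1.93, -0.85]), with 18.4% of the glaucoma UMIs in 1 barcode. Meshwork-like cells held MX1 at 78.2 and 74.7 CPM, and in the vascular endothelium-like cells it was 114 and 103 CPM. MX1 thus led in the non-myelinating class in both libraries and was called in the myelinating class alone.

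TRIM22, a ubiquitin ligase induced by interferons, had the most UMIs of the list (8169 over both libraries) and was lower in the glaucoma library in nearly every class. By the rule it was lower in the T or NK cell-like (148 against 375 CPM, log2 -1.34), macrophage-like (165 against 451 CPM, -1.45 [-1.66, -1.24]) and pericyte-like cells (159 against 347 CPM, -1.12). Just under the rule were the meshwork-like cells at 92.9 and 182 CPM (log2 -0.97), the stromal fibroblast-like at 147 and 284 CPM (-0.94) and the vascular endothelium-like at 511 and 846 CPM (-0.73). The muscle-like class, at 30.7 and 22.4 CPM, was the exception, but TRIM22 was above 1 only in its cluster 3 (log2 0.92), which held 37.9% of glaucoma and 59.8% of normal muscle-like cells, and not in clusters 8 (-0.49) and 21 (-1.33). In 8 of 9 classes the interval of the TRIM22 ratio lay below 1.

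Within the meshwork-like clusters the TRIM22 difference was at least as large as over the class. It stood at 89.8 and 204 CPM in cluster 1, 119 and 358 in cluster 9 and 74.2 and 173 in cluster 10, each past 2-fold (log2 -1.19, -1.58 and -1.22). Thinned, 8.69% of glaucoma and 16.4% of normal meshwork-like cells held a TRIM22 UMI, and 16.5% of 624 and 37.6% of 149 macrophage-like cells. Unthinned, the meshwork-like shares were 35.4% and 59.8%.

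ADAR, which edits double-stranded RNA and so keeps it from being sensed as viral, was below 1 in all 9 classes, with 8 intervals below 1, but never past 2-fold. It stood at 76.5 and 88.9 CPM in the meshwork-like cells (log2 -0.22) and was highest in the vascular endothelium-like cells at 303 and 362 CPM. Within clusters ADAR was less even. It went from log2 -1.35 to -0.31 in the meshwork-like clusters. In the stromal fibroblast-like clusters it went from -0.62 to 0.91, the latter with an interval above 1. EIF2AK2, the kinase PKR that halts translation, was lower in the stromal fibroblast-like cells (14.0 against 32.3 CPM, log2 -1.20 [-1.70, -0.73]) and below 1 in all 7 classes with at least 20 UMIs. BST2, or tetherin, which holds budding viruses at the cell surface, was below 1 in all 7 such classes, from 98.5 against 192 CPM in the macrophage-like cells to 21.8 against 29.5 CPM in the meshwork-like cells. Within clusters with at least 20 UMIs BST2 went both ways. It went from log2 -0.93 to 0.97 in the stromal fibroblast-like clusters, the latter with an interval above 1, and from -1.40 to 0.59 in the meshwork-like ones. Of all 2966 features with at least 20 UMIs in every class, 14.9% had a ratio above 1 in every class and 15.6% below 1. A ratio below 1 in at least 8 classes, as for TRIM22, was found for 27.7%. Thus 1 direction in all or nearly all classes is common in these libraries.

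SAMD9L, an antiviral factor that represses translation, was lower in the macrophage-like cells (27.1 against 60.2 CPM, log2 -1.15 [-1.72, -0.57]) and highest in the vascular endothelium-like cells at 111 and 162 CPM. SAMD9, the gene beside it, stood at 93.9 and 78.7 CPM there. IFIH1, the RNA sensor MDA5, reached 35.8 and 37.7 CPM in the vascular endothelium-like cells. CMPK2, a nucleotide kinase, and RSAD2, or viperin, are neighbours that reached 35.8 and 39.3 CPM, and 25.6 and 39.3 CPM, in the same class. XAF1, a pro-apoptotic protein, stood at 67.3 and 90.2 CPM there.

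ISG15, the ubiquitin-like protein that is joined to other proteins in the interferon response, was called in no class. It stood in the meshwork-like cells at 108 and 110 CPM (log2 -0.03), in the non-myelinating Schwann cell-like cells at 122 and 119 CPM, and in the vascular endothelium-like cells at 128 and 146 CPM, and further apart in the stromal fibroblast-like cells at 74.2 and 43.1 CPM (0.78). The near equal ISG15 levels of the non-myelinating Schwann cell-like class join 2 clusters that differ, with 108 and 179 CPM in cluster 2 (log2 -0.73) and 267 and 73.3 CPM in cluster 14 (log2 1.87), both intervals excluding 1. The ligases HERC5 and HERC6 and the ISG15 protease USP18 had under 100 UMIs in every class. HERC5 reached 23.0 and 22.9 CPM in the vascular endothelium-like cells, and USP18, with 148 UMIs the least of the list, 9.61 and 11.5 CPM. HERC6 reached 16 CPM in the glaucoma vascular endothelium-like cells and 20.7 CPM in the normal non-myelinating Schwann cell-like cells. PARP14, an ADP-ribosyltransferase, was lower in the macrophage-like cells (37.6 against 95.2 CPM, log2 -1.34 [-1.80, -0.87]) and stood at 84.3 and 141 CPM in the vascular endothelium-like cells. PARP9, of the same family, stood at 57.1 and 62.3 CPM there.

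The immunoproteasome subunits were each called higher in 1 of the 6 classes in which they were measured. PSMB9 was called in the meshwork-like cells, at 93.4 against 43.2 CPM (1215 and 268 UMIs, log2 1.11 [0.92, 1.31]), and PSMB8 in the stromal fibroblast-like cells, at 61.4 against 28.7 CPM (log2 1.09 [0.79, 1.40]). PSMB8 stood in the meshwork-like cells at 40.3 and 29.2 CPM (log2 0.46), and in the stromal fibroblast-like cells PSMB9 at 62.9 and 42.8 CPM (0.56). In the vascular endothelium-like cells both were high, PSMB9 at 468 and 334 CPM and PSMB8 at 231 and 164 CPM. Each had a ratio above 1 in all 8 classes with at least 20 UMIs. The PSMB9 difference was smaller within the clusters than over the meshwork-like class: within clusters 1, 9 and 10 its log2 ratio was 0.70, 0.84 and 0.36, and 0.65 with the same weight for each cluster. Markers of T or NK cells, the class where PSMB9 is highest, summed to 12.1 and 2.10 CPM in the meshwork-like cells (10 of 13 had a UMI; CD3E, KLRD1 and CCL5 were at 0), against 13527 and 11468 CPM in their own class, and their part in the PSMB9 difference was not tested. The stromal PSMB8 call was at log2 0.99, just under 2-fold, with the stricter filter. Of the 3 stromal fibroblast-like clusters with at least 20 UMIs, PSMB8 was above 1 in 2. Its log2 ratio there went from -2.06, with an interval that includes 1, to 1.26. In the 2 vascular endothelium-like clusters PSMB8 was at -0.18 and 0.63. The thinned share of meshwork-like cells with a PSMB9 UMI was 8.69% and 4.18%, and 30.6% and 22.7% unthinned.

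**Figure D3:**
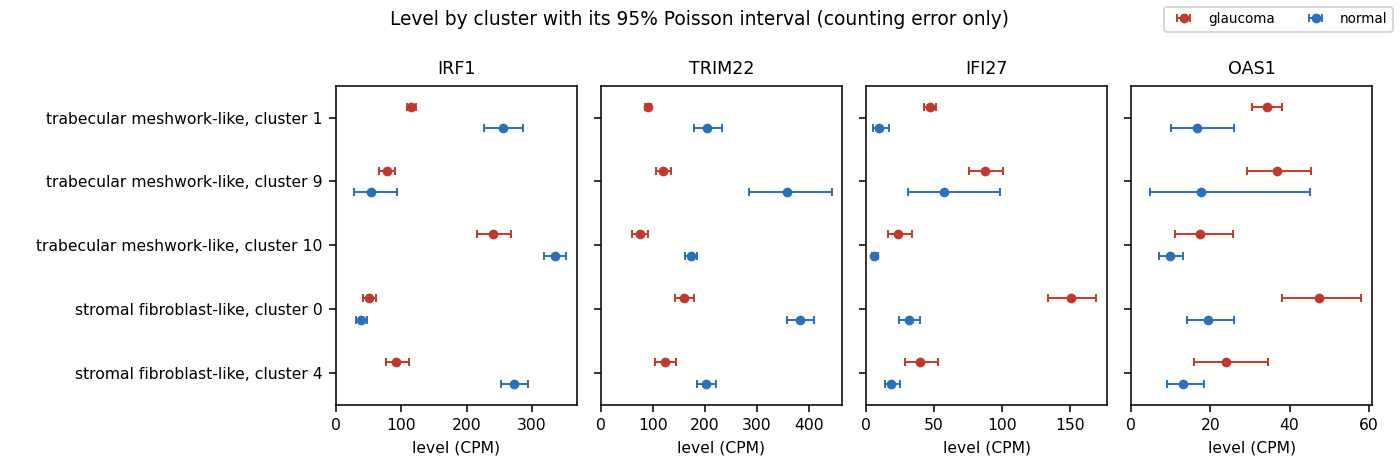
Level of IRF1, TRIM22, IFI27 and OAS1 in CPM (horizontal axis, linear) in meshwork-like clusters 1, 9 and 10 and stromal fibroblast-like clusters 0 and 4, with 1 point per library and bars for exact 95% Poisson intervals. TRIM22 is lower in the glaucoma library in each of these clusters, while IRF1 is lower in clusters 1, 10 and 4 and slightly above in clusters 9 and 0.

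Counted by class, few members were called, and the share of all genes called is given beside each count. In the meshwork-like cells 30 of 38 members had enough UMIs: 4 (13.3%) were higher, where 6.05% of all measured genes were, and 1 (3.33%) lower, where 5.55% were. In the stromal fibroblast-like cells it was 3 of 29 higher (all genes 1.85%) and 3 lower (4.73%). In the macrophage-like cells 1 of 16 was higher (3.36%) and 3 lower (5.6%), and in the pericyte-like cells 1 of 11 higher (2.44%) and 1 lower (4.92%). In the non-myelinating Schwann cell-like cells 1 of 9 was higher (2.83%) and none lower (5.29%), and in the myelinating Schwann cell-like cells none of 2 higher (1.97%) and 1 lower (4.95%). None of 25 was called in the vascular endothelium-like cells (1.92% and 1.69%), and none of 5 in the muscle-like cells (3.3% and 3.78%). The minimum of 100 UMIs is on the sum of both libraries, so members that are low in both are not among these. Of 133 pairs of a member and a class, 10 were higher, 11 lower and 112 between.

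The members' median log2 ratio was -0.20 in the meshwork-like cells (all genes 0.01), 0.14 in the stromal fibroblast-like (-0.12), -0.13 in the vascular endothelium-like (-0.09), -0.36 in the macrophage-like (-0.03), 0.15 in the pericyte-like (-0.02) and -0.15 in the non-myelinating Schwann cell-like cells (-0.02). Over the fewer members measured elsewhere it was 0.28 for 6 in the T or NK cell-like (0.15), 0.10 for 5 in the muscle-like (-0.12) and -1.13 for 2 in the myelinating Schwann cell-like cells (-0.04). With counts this small, nothing is read from them about the list as a whole.

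**Figure D4:**
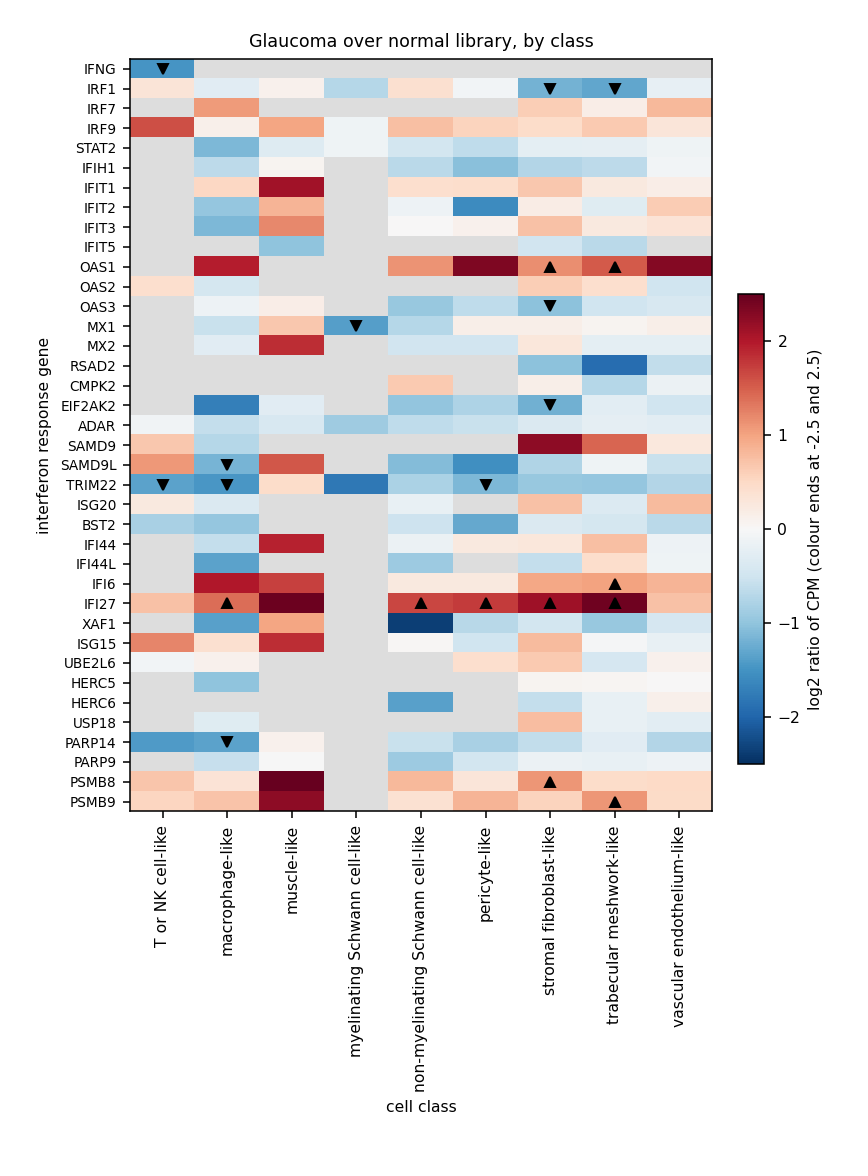
Log2 ratio of the glaucoma over the normal level for each member in each class (red higher, blue lower, colour ending at -2.5 and 2.5); grey marks members with under 20 UMIs in the class, and triangles mark the calls. IFI27 carries 5 upward triangles and TRIM22 3 downward ones, and most coloured fields carry none.

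Which genes made up the sum changed more than the sum did. IRF1 gave 9.87% (glaucoma) and 21.7% (normal) of all member UMIs of the meshwork-like cells. In the vascular endothelium-like cells IFI27 led in the glaucoma library with 19.8% and TRIM22 in the normal library with 19.2%. In the T or NK cell-like cells the first gene was PSMB9 with 18.1% and IFNG with 22.5%.

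Whether the members sit in the same cells was asked of a core of 20 type I genes, in cells thinned to 1000 UMIs so that depth does not set the answer. Cells under 1000 UMIs drop out, unevenly by class and library. In the glaucoma and normal libraries 399 of 876 and 417 of 575 non-myelinating Schwann cell-like cells were left. Of the vascular endothelium-like cells 595 of 640 and 227 of 307 were left. The count of cells with UMIs of both genes of a pair, summed over pairs, was divided by the count expected if the genes were independent. For the meshwork-like cells this ratio was 2.37 in the glaucoma and 2.33 in the normal library. It was 4.12 and 2.87 in the macrophage-like, 3.01 and 2.63 in the non-myelinating Schwann cell-like, 2.75 and 2.0 in the pericyte-like, 2.36 and 1.61 in the stromal fibroblast-like, 3.24 and 2.03 in the myelinating Schwann cell-like, and 1.52 and 1.90 in the vascular endothelium-like cells. The T or NK cell-like cells, at 1.60 and 0.755, were the one class with a value below 1, in the normal library, where it rests on 3 observed pairs against 3.97 expected. The muscle-like values, 4.44 and 11.8, rest on 13 and 12 observed pairs. For the immediate early list, counted the same way, the ratio was between 1.09 and 1.47. That list was found in more cells, with any of its genes in 86.3% and 84.0% of meshwork-like cells, against 33.4% and 29.7% for the core. The ratio has less room to rise where genes are found often, so the 2 lists cannot be ranked by it.

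Within single clusters co-detection was above 1 in most but not all. Within meshwork-like clusters 1, 9 and 10 the ratio was 2.49, 1.78 and 2.69 (glaucoma) and 2.81, 2.02 and 2.22 (normal). It was below 1 in the small normal stromal fibroblast-like clusters 16 (0.839) and 18 (0.599), and no pair was seen in muscle-like clusters 3 and 21 of the glaucoma library or cluster 3 of the normal one, with under 3 expected. Cells with UMIs of at least 3 different core genes made up 67 of 2314 glaucoma meshwork-like cells (2.90% [2.25, 3.66], 1.04% expected) and 21 of 837 normal ones (2.51% [1.56, 3.81], 0.770% expected). In the macrophage-like cells they made up 34 of 624 (5.45%, 0.922% expected) and 10 of 149 (6.71%, 1.69% expected). In the vascular endothelium-like cells, where the core genes are high throughout, 17.8% and 15.9% were close to the 17.1% and 13.8% expected. Cells with at least 3 core genes were thus seen in both libraries, and the intervals of their shares overlap in the meshwork-like class.

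At 1000 UMIs per cell the core genes gave few UMIs. The median cell had 0 core UMIs in all the classes but the vascular endothelium-like, where it had 2 (glaucoma) and 1 (normal). The top 10% of meshwork-like cells held 58.1% and 60.7% of core UMIs, and in the vascular endothelium-like cells 35.7% and 41.8%, shares that low counts raise by themselves. Spearman correlations between a core gene and the sum of the others across cells were weak, with class medians from 0.043 to 0.246, and are a description only.

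**Figure D5:**
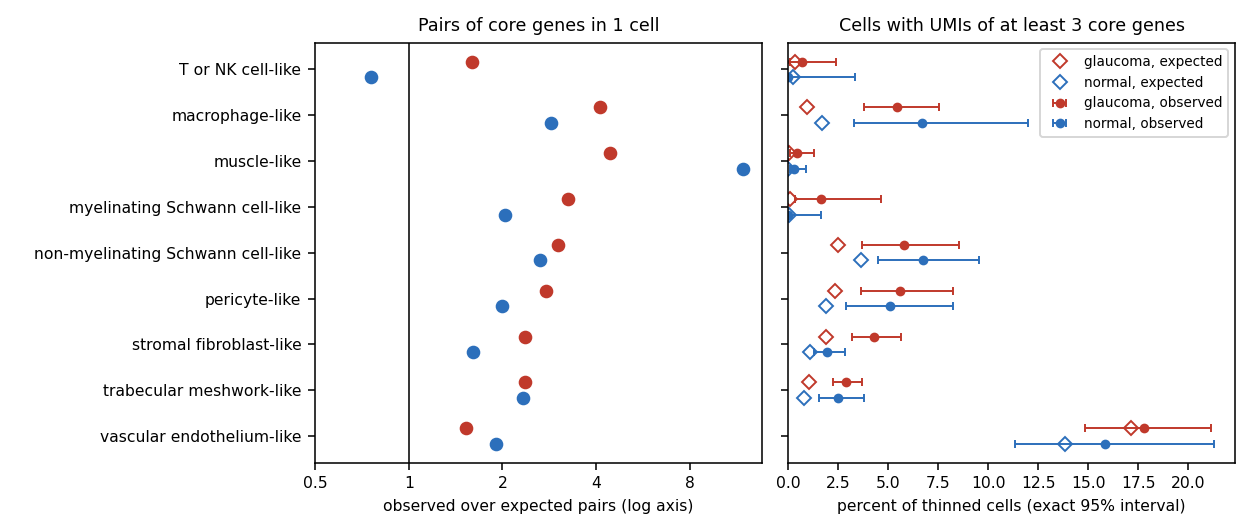
Left, observed over expected pairs of the 20 type I core genes in cells thinned to 1000 UMIs (log axis; the line at 1 marks independence); right, percent of cells with at least 3 core genes, observed (points with exact 95% intervals) and expected (diamonds), by class and library. On the left all points but the normal T or NK cell-like one lie above 1, and on the right observed and expected shares lie close together in the vascular endothelium-like class.

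Single pairs could be followed best in the glaucoma meshwork-like cells. Of 69 pairs of members expected in at least 5 cells there, 16 had an interval above 1. MX1 and IFI27 were found together in 21 cells against 5.06 expected (ratio 4.15 [2.57, 6.35]), MX1 and ISG15 in 31 against 9.20, IFI27 and ISG15 in 18 against 5.42, and PSMB8 and PSMB9 in 23 against 8.86. In the normal meshwork-like cells, with fewer cells, 17 pairs could be followed and none had an interval above 1. Over all classes and both libraries 28 of 541 pairs had an interval above 1 and 4 below.

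Members outside the core were compared between cells with and without core genes. In the glaucoma meshwork-like cells PSMB9 was found in 32 of 198 cells with at least 2 core genes (16.2%) and in 111 of 1542 with none (7.20%). TRIM22 was found in 13.6% and 7.52%, and ADAR in 10.1% and 7.07%. For IRF1 it was 7.58% of cells with at least 2 core genes and 10.2% of those with none, and for STAT2 2.02% and 2.33%. In the normal library IRF1 stood at 11.7% and 15.1% and TRIM22 at 24.7% and 15.6%. IRF1 was more often found with the core in some other glaucoma classes. It was in 13 of 125 (10.4%) and 30 of 689 (4.35%) stromal fibroblast-like cells. Macrophage-like cells held it in 5 of 50 (10.0%) and 19 of 454 (4.19%). In the T or NK cell-like cells it was 14 of 19 (73.7%) and 91 of 225 (40.4%). The vascular endothelium-like cells did not follow, with 10.6% and 12.0% (glaucoma) and 13.3% and 13.0% (normal). PSMB9, TRIM22 and ADAR also went both ways outside the meshwork-like class. In the glaucoma library PSMB9 stood at 24.0% and 9.69% (macrophage-like) but 36.8% and 48.9% (T or NK cell-like). TRIM22 stood there at 20.0% and 13.9% (pericyte-like) but 13.6% and 14.9% (stromal fibroblast-like). For ADAR the vascular endothelium-like shares were 31.7% and 18.0% (glaucoma) but 36.0% and 46.8% (normal).

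Other genes of the pathway were counted from lists. Of 8 listed interferon ligands 4 had a named feature and none was measured in a class. Of 5 named receptor genes 4 were measured in the meshwork-like cells, and IFNAR2, a chain of the type I receptor, was higher there (7.99 against 3.87 CPM, log2 1.05). Of 5 kinases and STATs all 5 were measured there and JAK2, a kinase of the interferon-gamma and cytokine receptors, was lower (10.4 against 26.0 CPM, log2 -1.32). It was also lower in the muscle-like cells (11.4 against 23.3 CPM, -1.04). Of 10 named genes of nucleic acid sensing 6 were measured in the meshwork-like cells and none was called.

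Of 5 negative regulators measured in the meshwork-like cells 3 were called lower, where 5.55% of all measured genes were, with a list median of log2 -1.23 (all genes 0.01). SOCS1, which shuts off JAK kinases after interferon signalling, stood at 57.9 against 136 CPM (log2 -1.23 [-1.37, -1.08]). SOCS3, which does so mainly downstream of the IL6 family, stood at 8.30 against 25.2 CPM (-1.60), and CISH, a cytokine-induced member of that family, at 25.4 against 89.2 CPM (-1.81). CISH was also lower in the stromal fibroblast-like (7.94 against 25.2 CPM, -1.66) and muscle-like cells (7.27 against 15.4 CPM, -1.08). Of 9 named interferon-gamma targets 3 were measured in the meshwork-like cells, and GBP3, a guanylate-binding protein, was higher (12.9 against 5.00 CPM, log2 1.37). In the macrophage-like cells PSME2, a proteasome activator subunit, was higher (341 against 168 CPM, log2 1.02). No other gene of these lists was called in any class. Of all measured genes of the meshwork-like class 6.05% were called higher. The pathway genes were not split by cluster, although the libraries differ in how the meshwork-like cells divide over clusters.

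The members are not independent by position: 18 of the 39 lie next to another member in the reference gene order (T2T-MMU8v2.0), in 9 adjacent pairs. Among them are OAS1 and OAS3, with opposite differences in the stromal fibroblast-like cells, and MX1 and MX2, with the same leading class.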

How the data were processed

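Trabecular meshwork cells of 2 groups, 1 library per group, were analysed. The authors deposited raw UMI counts per gene and barcode, whole numbers without normalization. Per the submitters' processing notes Cell Ranger 4.0 and Seurat 3.0 were used, while the matrices were written by Cell Ranger 6.0.0 per the file headers. The genome build is not given in the sources used here. The matrices held 10624 glaucoma and 7028 normal barcodes with 38765808 and 25042621 UMIs. From these counts, cells with at least 500 genes and under 20% mitochondrial UMIs were kept, and doublets called by Scrublet, at an expected 0.8% per 1000 cells, were removed. It called 296 (3.43%) and 45 (0.829%), below the 6.91% and 4.34% expected, so doublets may remain. Of 24037 features 15580 had a symbol in the files and 873 took one from the reference table.

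Python 3.11.15, scanpy 1.11.5, anndata 0.12.19, numpy 2.4.6, scipy 1.17.1, leidenalg 0.10.2, scikit-learn 1.9.0 and matplotlib 3.10.9 were used with seed 1. The 2 libraries were joined and clustered with no integration step (10000 UMIs per cell, log scale, 2000 variable genes, 30 principal components, 15 neighbours, resolution 1). Clusters were named from 19 marker sets: a marker counted at 2-fold above the median cluster (CPM with 10 added) and a UMI in 10% of cells, with at least 3 needed. A name was withheld where the 10 leading genes, each with a UMI in 25% of cells, held more markers of another class.

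UMIs were summed by class and library. CPM have exact Poisson intervals, shares exact Clopper-Pearson intervals and ratios exact conditional binomial intervals, all 95%. No test was possible with 1 library per group. Co-detection used cells thinned to 1000 UMIs. The scripts were tested on simulated data. Named are the members called in a class, the 12 with most UMIs, IFNG and the transcription factors, the leading class of the rest, and the called pathway genes. The members and lists were chosen with earlier results of these data known. Alternatives were doublets kept, a stricter filter (1000 genes, 10% mitochondrial), median centring, thinning to 1000 or 2000 UMIs, separate clustering, equal cluster weights, 20 UMIs, 1.5-fold, all members in place of the core, and leaving out each member's top barcode. Promoter motifs were not analysed here.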

Additional observations from a re-analysis of the deposited data

How the results depend on the processing

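Of the 21 calls on members, the direction held in all 21 with libraries clustered separately, the same weight for each cluster, median centring, or the top barcode left out, and 18, 17, 19 and 21 of them stayed at least 2-fold. With doublets kept, 20 held their direction and 19 the 2-fold size. With the stricter filter 15 of the 16 that were measured held their direction (12 at 2-fold), and in cells thinned to 1000 UMIs 10 of 10 (8 at 2-fold).

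IRF1 in the stromal fibroblast-like cells was the call that turned sign, to log2 0.27 with doublets kept and 0.20 with the stricter filter; the cause was not tested. For the summed member level (log2 ratio), doublets kept gave -0.13 in the myelinating Schwann cell-like, 0.035 in the stromal fibroblast-like and -0.22 in the meshwork-like cells. The stricter filter gave 0.0098 in the pericyte-like and 0.070 in the vascular endothelium-like cells and 0.16 over all kept cells. Median centring gave -0.22 in the T or NK cell-like, 0.56 in the muscle-like, 0.11 in the stromal fibroblast-like and 0.10 in the vascular endothelium-like cells and 0.35 over all kept cells. Thinning to 1000 UMIs gave -0.12 in the meshwork-like cells and 0.17 over all kept cells. Separate clustering gave -0.14 in the stromal fibroblast-like and -0.10 in the meshwork-like cells. The same weight for each cluster gave 0.023 in the muscle-like, 0.14 in the non-myelinating Schwann cell-like and -0.34 in the meshwork-like cells. The pericyte-like, stromal fibroblast-like, non-myelinating Schwann cell-like and vascular endothelium-like sums changed sign under at least 1 of these settings; the last was near 0 throughout and below it with doublets kept (-0.033), in thinned cells (-0.031) and with the same weight for each cluster (-0.034). The cause was not tested.

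Counts of called members moved as follows. With doublets kept 1 member was higher in the vascular endothelium-like cells. In thinned cells 0 were higher and 1 lower in the macrophage-like cells. With at least 20 UMIs it was 3 higher and 8 lower in the macrophage-like cells, 2 lower in the meshwork-like and 1 higher in the vascular endothelium-like. With a 1.5-fold rule it was 2 higher and 6 lower in the macrophage-like, 9 and 8 in the stromal fibroblast-like, 5 lower in the meshwork-like, and 2 higher and 3 lower in the vascular endothelium-like cells.

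The summed level with doublets kept was 3244 CPM in the glaucoma T or NK cell-like, 298 in the normal muscle-like, 663 in the glaucoma myelinating Schwann cell-like, 1656 and 1616 in the glaucoma and normal stromal fibroblast-like, 1437 in the normal meshwork-like, and 4099 and 4194 in the glaucoma and normal vascular endothelium-like cells. With separate clustering it was 261 CPM in the normal muscle-like, 1394 in the glaucoma stromal fibroblast-like and 1334 in the normal meshwork-like cells. In thinned cells it was 2235 CPM in the normal macrophage-like, 423 and 326 in the glaucoma and normal muscle-like, 1580.1 in the normal stromal fibroblast-like, 1327 in the normal meshwork-like, and 4531 and 4630.0 in the glaucoma and normal vascular endothelium-like cells.

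The co-detection ratio at 2000 UMIs was 3.28 in the glaucoma macrophage-like, 6.00 in the normal muscle-like, 1.32 in the glaucoma myelinating Schwann cell-like, 1.60 and 1.44 in the glaucoma and normal pericyte-like, 2.06 in the glaucoma stromal fibroblast-like, 2.17 and 1.96 in the meshwork-like, and 1.41 and 1.64 in the vascular endothelium-like cells. With doublets kept it was 1.41 in the normal stromal fibroblast-like cells. Over all members in place of the core it was 1.07 and 1.12 in the T or NK cell-like cells, and it was lower than for the core at 1.78 and 1.39 in the macrophage-like, 2.0 and 2.03 in the muscle-like, 2.20 and 1.87 in the non-myelinating Schwann cell-like, 1.69 and 1.27 in the pericyte-like, 1.5 and 1.12 in the stromal fibroblast-like, 1.52 and 1.37 in the meshwork-like, and 1.14 and 1.25 in the vascular endothelium-like cells.

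No paired analysis was possible because each group has 1 library. Depth limited the classes with few UMIs: 2 members reached 100 UMIs in the myelinating Schwann cell-like and 5 in the muscle-like cells, and 6 members (IRF7, IFIT5, RSAD2, HERC5, HERC6 and USP18) in none.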
